A study of Mus musculus with 2 samples.

Results

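The genes described here encode NF-κB subunits, the IκB proteins that bind them, the kinases and adaptors that switch them on, and the feedback genes that switch them off. They were taken from a fixed list of 34 gene symbols, and all 34 were found among the 52636 Ensembl genes counted in each library. Liver RNA was sequenced from C57BL/6 mice aged 9 weeks, either wild type (WT) or GBP5-/- (KO). All animals, WT included, had received GalN (D-galactosamine) at 800 μg and LPS (lipopolysaccharide) at 100 ng per g of body weight 6 h before. GalN traps uridine in hepatocytes, which leaves the liver far more vulnerable to LPS, the endotoxin of bacterial outer membranes. Each genotype was 1 library, made from RNA pooled from 4 livers. How the Gbp5 allele was made is not given in the sources used here, and no untreated liver was analysed here. With 1 library per genotype there is no replicate check, no test across animals and no p-value. All intervals below are 95% Clopper-Pearson intervals that cover counting error only.

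The libraries held 19864848 reads on genes in WT and 15750875 in KO, so a given CPM (reads scaled to library size) rested on fewer reads in KO. For Gbp5, the gene named in the genotype, 3211 WT reads and 873 KO reads were counted, or 162 and 55.4 CPM. Its level was 2.92-fold lower in KO (interval 2.71 to 3.15), in the direction of the genotype label, and counts per gene do not show which exons the remaining reads cover. None of 12 hepatocyte markers was at 0 reads in either library, and together they held 82025 CPM in WT and 121930 CPM in KO, as the tissue label implies.

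NF-κB proteins pair up from a small family of subunits and wait in the cytoplasm, held there by IκB proteins. Endotoxin and TNF receptors recruit adaptors and ubiquitin ligases, which activate the IκB kinase complex; the kinase marks IκB for destruction and the freed subunits enter the nucleus. A slower, noncanonical route runs from receptors such as CD40 through the kinase encoded by Map3k14 to the processing of the Nfkb2 product, the partner of RelB. Many of the genes that NF-κB turns on, such as Nfkbia, Tnfaip3 and Nfkb2, encode its own regulators, and in the liver both Kupffer cells and hepatocytes use the pathway.

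Most NF-κB genes were lower in KO, but only a minority by a wide margin. Of the 34 members, all of which had a mean of 1 CPM or more over both libraries, 25 (73.5%) were below and 9 above an equal level, where 54.5% of all genes compared were below it. A CPM ratio of 0.5 or less was found for 6 members, namely Nfkb2, Traf1, Tnip1, Cd40, Relb and Tnip2. That is 17.6% of members, against a background of 11.8% of the 13446 genes with a mean of 1 CPM or more. A ratio of 2 or more was found for 0 members against a background of 3.28%, and with totals that left out the 50 most abundant genes the split was 6 lower and 1 higher, the latter being Traf6. The median log2 ratio of KO to WT was -0.28 over the members and -0.07 over all genes that passed the same filter. In bulk liver RNA, fewer cells of a type and less RNA per cell cannot be told apart.

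By counting error alone, 19 members had an interval wholly below an equal level, against a background of 37.1% of genes. Another 5 had an interval wholly above it, against a background of 26.5%, and 10 had an interval that spanned it. Both backgrounds are high, so an interval clear of an equal level was common in these libraries and is read here only as counting precision.

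**Figure D1:**
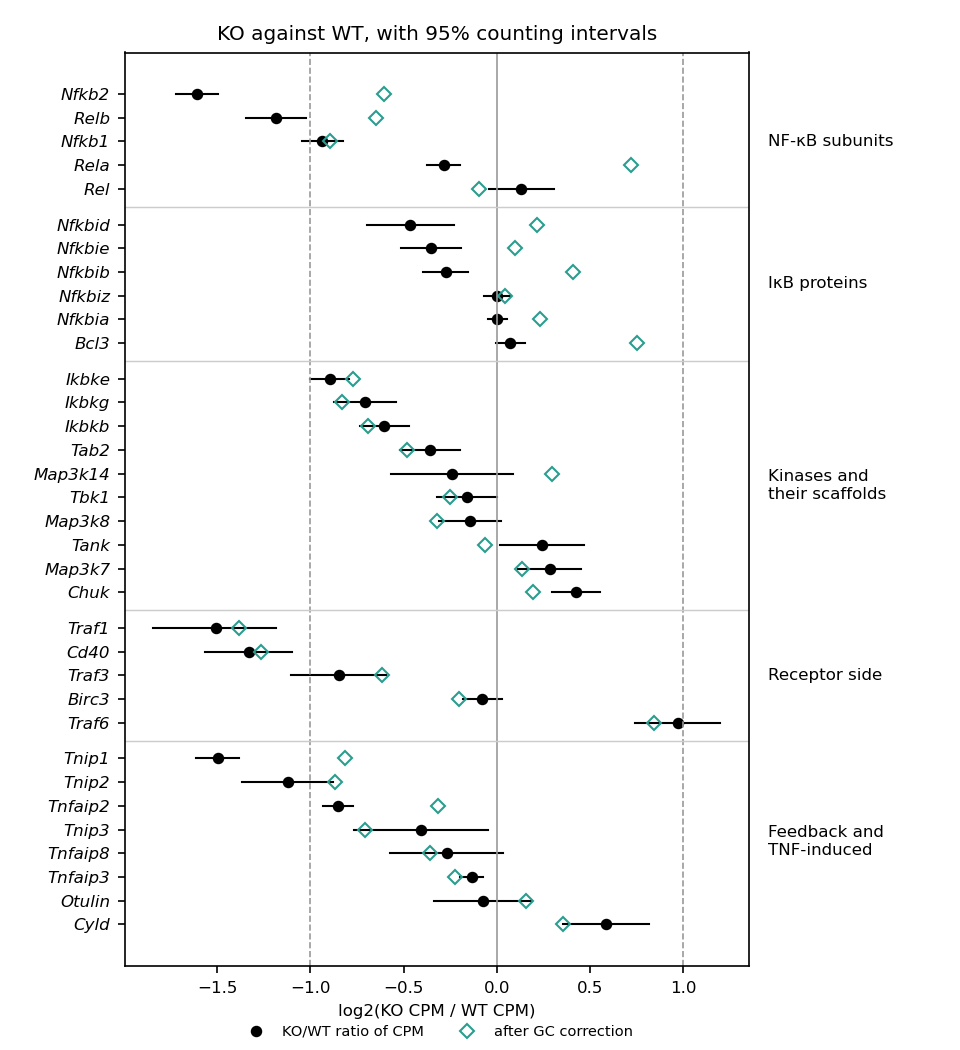
Log2 ratio of KO to WT CPM for each of the 34 genes (x axis), grouped by role (y axis). Filled circles carry 95% counting intervals, open diamonds are the values after the GC correction, and dashed lines mark a 2-fold difference. Of the 6 filled circles left of the lower dashed line, only Traf1 and Cd40 keep their diamond beyond it.

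The subunit genes split, with the members of the slower route and Nfkb1 lower and the others near level. Nfkb2 (chromosome 19, 46304320 to 46312385, plus strand, GRCm38), whose product is processed into the DNA-binding partner of RelB, had 3155 reads in WT and 821 in KO. Per length this was 34.6 FPKM (a density of reads scaled to exon length and library size) in WT and 11.4 FPKM in KO, 3.05-fold lower in KO (interval 2.82 to 3.29). Its exons overlap Psd on the opposite strand over 6.52% of their length and another opposite-strand annotation over 11.6%, and whether counting used strand is not given in the sources used here.

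Relb, the transactivating partner of the processed Nfkb2 product, was counted 1231 times in WT and 429 times in KO, at 16.0 and 7.01 FPKM. That is 2.28-fold lower in KO (interval 2.04 to 2.55). Nfkb1, which encodes the precursor of the common DNA-binding subunit, had 2279 and 945 reads, or 9.51 and 4.97 FPKM, a ratio of 0.523 (interval 0.484 to 0.564). It therefore lay just short of 2-fold.

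Rela, the main transactivating subunit of the canonical route, stood at 41.3 FPKM in WT and 33.9 FPKM in KO, on 2522 and 1641 reads, a ratio of 0.821 (interval 0.771 to 0.874). Rel, best known from lymphocytes and myeloid cells, had 586 and 509 reads, or 3.95 and 4.33 FPKM, and its ratio of 1.10 had an interval from 0.971 to 1.24. In WT, Rela and Nfkb2 had levels close to one another, whereas in KO Nfkb2 stood far below Rela. Summed over the 5 subunit genes, the libraries held 492 CPM in WT and 276 CPM in KO.

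Among the 34 genes grouped by role, the IκB genes were nearest to level before the correction for GC content described below. Nfkbia, the classical inhibitor and the most abundant member in both libraries, had 7229 reads in WT and 5739 in KO, which is 226.0 and 226.3 FPKM. Its ratio was 1.0 with an interval from 0.967 to 1.04. Nfkbiz, an atypical nuclear IκB that works as a coactivator, was at 38.6 and 38.7 FPKM, with a ratio of 1.0 (interval 0.954 to 1.05).

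Bcl3, a nuclear IκB that binds homodimers of the DNA-binding subunits, had 3019 and 2516 reads, or 61.4 and 64.5 FPKM, a ratio of 1.05 (interval 0.997 to 1.11). It was the second most abundant member per length in both libraries. Nfkbib, Nfkbie and Nfkbid lay somewhat lower in KO, with ratios of 0.827, 0.783 and 0.725 and all 3 intervals below an equal level. Nfkbib and Nfkbie encode cytoplasmic inhibitors and Nfkbid a nuclear one. No IκB gene reached 2-fold, and the 6 together held 843 CPM in WT and 824 CPM in KO. The exons of Nfkbib overlap Ccer2 on the opposite strand over 14.5% of their length, where Ccer2 had 12 and 6 reads, and Sirt2 on that strand over 1.94%, where Sirt2 had 1670 and 1131 reads.

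**Figure D2:**
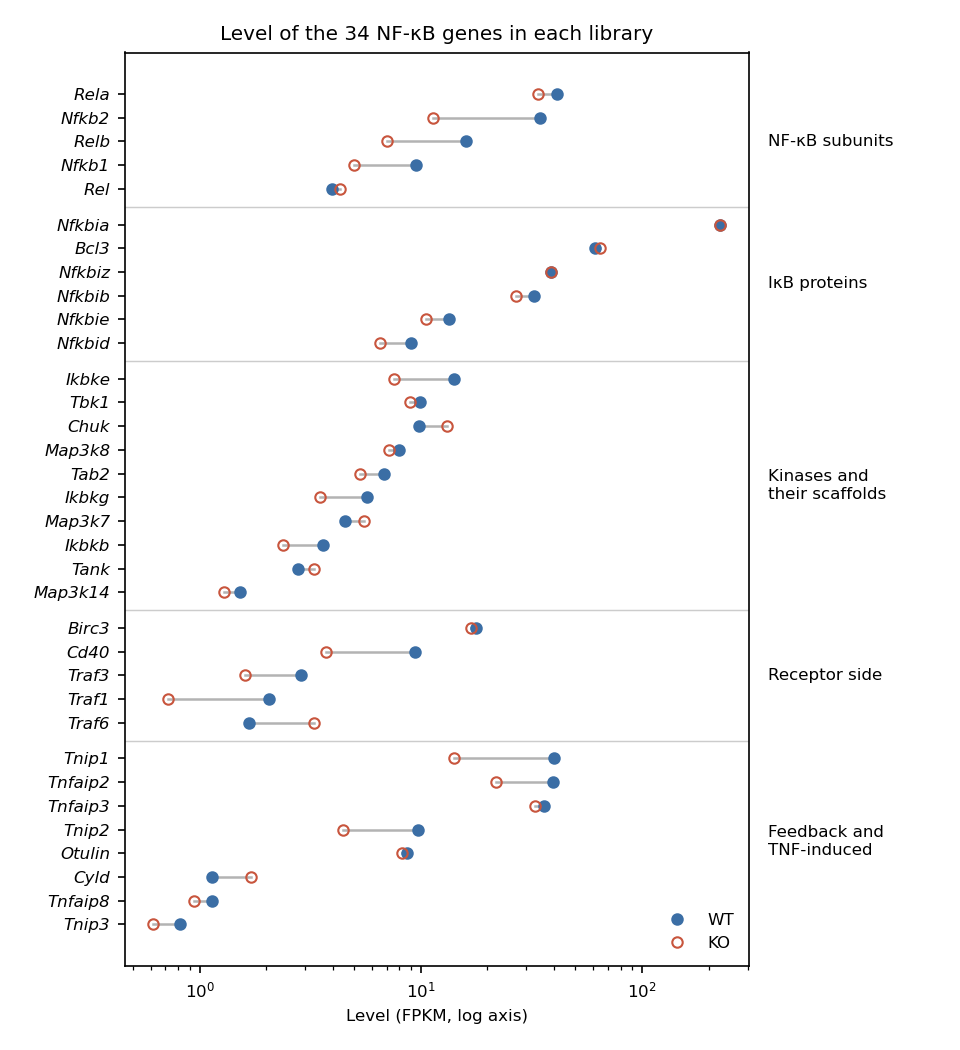
Level of each of the 34 genes in FPKM (x axis, log scale) in the WT library (filled blue) and the KO library (open red), joined by a grey line and grouped by role (y axis). Nfkbia coincides at 226 FPKM, while Nfkb2 and Tnip1 show long grey lines to the left, from 34.6 to 11.4 and from 40.1 to 14.2 FPKM.

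Kinase genes differed by less than 2-fold throughout and pointed both ways inside one complex. The canonical IκB kinase consists of catalytic subunits encoded by Chuk and Ikbkb and the regulatory subunit NEMO encoded by Ikbkg. Ikbkb had 1366 WT and 713 KO reads, or 3.60 and 2.37 FPKM, a ratio of 0.658 (interval 0.60 to 0.721). Ikbkg had 919 and 447 reads, or 5.70 and 3.50 FPKM, a ratio of 0.613 (interval 0.547 to 0.688), and shares 5.15% of its exon length with G6pdx on the opposite strand. Chuk went the other way, with 987 and 1051 reads, or 9.77 and 13.1 FPKM, a ratio of 1.34 (interval 1.23 to 1.47). These opposite differences stayed on their own sides after the correction for GC content described below, at -0.69 for Ikbkb, -0.83 for Ikbkg and 0.20 for Chuk.

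Upstream of that complex, Map3k7, the kinase that activates it, had a ratio of 1.22 (interval 1.08 to 1.37) on 578 and 558 reads. Tab2, its ubiquitin-binding partner, had a ratio of 0.781 (interval 0.698 to 0.873) on 830 and 514 reads. Map3k8, a kinase tied to the Nfkb1 precursor, and Map3k14, the NF-κB-inducing kinase of the slower route, had intervals that spanned an equal level, on 710 and 510 reads and on 198 and 133 reads. Among the IκB kinase relatives, Ikbke had 2535 WT and 1079 KO reads, or 14.2 and 7.60 FPKM, and was 1.86-fold lower (interval 1.73 to 2.0). Its close relative Tbk1, which acts in interferon induction as well, stood at 9.95 and 8.91 FPKM, with a ratio of 0.896 (interval 0.801 to 1.0). Tank, a scaffold of both, had 338 and 317 reads and a ratio of 1.18 (interval 1.01 to 1.38). Over all 10 genes of this group, 7 were below and 3 above an equal level.

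On the receptor side lay the widest spread of the 34 genes. Cd40 (chromosome 2, 165055627 to 165072948, plus strand), a TNF receptor family member of B cells, macrophages and activated endothelium, had 634 reads in WT and 200 in KO. Its levels of 9.37 and 3.73 FPKM differ 2.51-fold, lower in KO (interval 2.14 to 2.96). Traf1 (chromosome 2, 34941750 to 34961772, minus strand), an adaptor and NF-κB target, had 359 and 100 reads, or 2.05 and 0.720 FPKM, 2.85-fold lower (interval 2.27 to 3.59). Traf3, an adaptor that holds the slower route in check by driving the breakdown of the Map3k14 product, had 420 and 185 reads and a ratio of 0.556 (interval 0.465 to 0.662).

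Traf6, the ubiquitin ligase that relays Toll-like receptor signals, was the member highest in KO relative to WT. It had 262 WT and 407 KO reads, or 1.67 and 3.28 FPKM, a ratio of 1.96 (interval 1.67 to 2.30). Birc3, a ubiquitin ligase of the TNF receptor complex that is itself an NF-κB target, stood at 17.8 FPKM in WT and 16.9 in KO, with a ratio of 0.948 (interval 0.882 to 1.02). Traf3 was thus above Traf6 per length in WT, at 2.88 against 1.67 FPKM, and below it in KO, at 1.6 against 3.28 FPKM.

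Among feedback genes, the deubiquitinases were near level or higher, while all 3 genes of the Tnip family were lower, 2 of them by at least 2-fold. Tnfaip3, the ubiquitin-editing enzyme that ends TNF and endotoxin signals, had 5199 WT and 3754 KO reads, or 36.2 and 33 FPKM. Its ratio was 0.911 (interval 0.873 to 0.950). Tnip1 (chromosome 11, 54910785 to 54962917, minus strand), whose product brings that enzyme to ubiquitin chains, had 2818 and 791 reads, or 40.1 and 14.2 FPKM. This made it 2.82-fold lower in KO (interval 2.61 to 3.06). Tnip1 lay above Tnfaip3 per length in WT and below it in KO.

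Tnip2, of the same family as Tnip1, had 518 WT and 189 KO reads, or 9.71 and 4.47 FPKM, 2.17-fold lower (interval 1.84 to 2.58). Tnip3, the third member of that family, was the lowest of the 34 genes per length in both libraries, at 0.816 and 0.617 FPKM, with a ratio of 0.755 (interval 0.588 to 0.966). Cyld, a deubiquitinase that removes activating chains, had 285 and 339 reads and a ratio of 1.5 (interval 1.28 to 1.76). Otulin, which removes linear chains, had 291 and 219 reads, and its ratio of 0.949 had an interval from 0.793 to 1.13.

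Tnfaip2 and Tnfaip8 are TNF-induced genes outside the core feedback loop. Tnfaip2 had 3924 WT and 1724 KO reads, or 39.6 and 22.0 FPKM, a ratio of 0.554 (interval 0.523 to 0.587). Tnfaip8 had 234 and 154 reads, with a ratio of 0.830 and an interval from 0.673 to 1.02; 12.7% of its exon length overlaps a gene on the opposite strand that had 0 and 2 reads. Overlaps of up to 6.51% of exon length with genes of few reads also touch Bcl3, Tnfaip2, Map3k14 and Ikbke.

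The ratio between the libraries went with the GC content of a gene's exons, and the members shared this. Across all 13446 genes Spearman's rho between log2 ratio and GC content was -0.46, and across the 34 members it was -0.50; genes share both libraries and are not replicates. Against exon length and against mean CPM, rho across the members was 0.02 and -0.03. The 18 members under 50% GC had a median log2 ratio of -0.14, where all genes of that class had 0.14. The 6 members from 50% to under 55% had -0.87 against -0.21 for all genes of that class. The 10 members at 55% or more had -0.41 against -0.67 for all genes of that class. By these medians the GC-poor and intermediate members lay below genes of like composition and the GC-rich ones above them. Of those 10, 3 (30.0%) were at least 2-fold lower, and 32.9% of all genes of that class were.

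**Figure D3:**
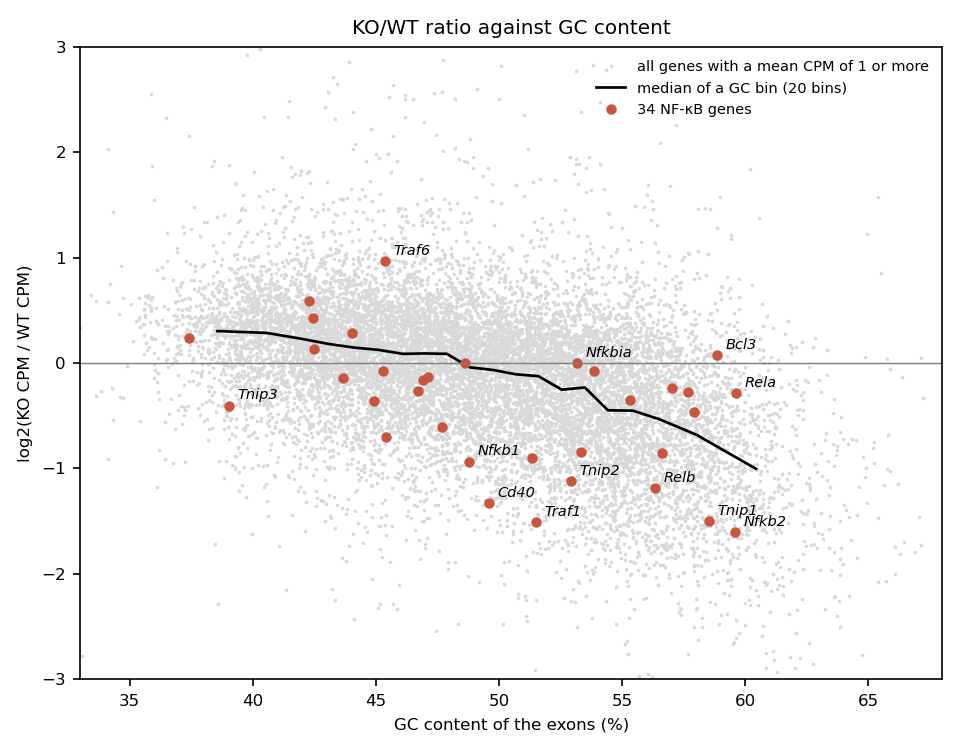
Log2 ratio of KO to WT CPM (y axis) against the GC content of the exons in percent (x axis). Grey points are all genes with a mean of 1 CPM or more (83 lie outside the frame), the black line joins the medians of 20 GC bins, and red points are the 34 NF-κB genes. Nfkb2, Rela, Tnip1 and Bcl3 share the GC-rich end and differ widely in height there.

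Each gene's log2 ratio was therefore also taken relative to the median of its GC bin, 1 of 20 bins of equal size. On this scale 21 members were below and 13 above 0, with a median of -0.24, and 50% of all genes were below 0 by construction. Traf1 and Cd40 were 2-fold lower, that is 2 of 34, against a background of 6.37%, and no member was 2-fold higher, against a background of 4.25%. Traf1 was at -1.38 and Cd40 at -1.26, and only 2.38% and 2.08% of the genes in their bins lay lower. Nfkb2 moved to -0.60, Relb to -0.65, Tnip1 to -0.82 and Tnip2 to -0.87. Of the 673 genes in the bin of Nfkb2, 21.4% lay lower than it did. Nfkb1, not among the 6, was hardly moved, from -0.94 to -0.89, and 4.61% of its bin lay lower. With 10 GC bins by 4 length bins the counts were 3 lower, against a background of 5.7%, and 0 higher, against a background of 3.87%. On that scale Nfkb1 was at -0.77, Nfkb2 at -0.37, Relb and Tnip1 at -0.53 and Tnip2 at -1.04. Traf3 was at -0.13 and Tnfaip2 at 0.04, from -0.62 and -0.32 with GC content alone. A genotype difference that followed GC content would be taken out by either correction.

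The correction moved the IκB genes and Rela upward. All 6 IκB genes were above 0 after it, from 0.04 for Nfkbiz to 0.75 for Bcl3, with a median of 0.23, although Nfkbie was at -0.11 when length was corrected as well. Rela went from -0.29 to 0.72, with 81.1% of its bin lower. In all, 6 members went from below to above 0, among them Rela, Nfkbib and Map3k14, and 2 went the other way, Rel to -0.10 and Tank to -0.06. The remaining 26 members kept their side, as 19 were below 0 and 7 above 0 on both scales.

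Promoters are shown because NF-κB is known to regulate several of these genes through sites in them. The search was for the κB consensus, the 10-base sequence that NF-κB dimers recognise, on both strands of RefSeq windows (GRCm38.p6) running from 250 bases before to 50 bases after an annotated gene start. Overlapping matches count as 1 site. Where a gene had more than 1 window, the window with the most sites was used, for members and for all genes alike. Genes with more windows thus had more chances of a match. Of the members, 27 were in the promoter table; Nfkb1, Relb, Nfkbiz, Ikbkb, Map3k8, Cd40 and Tnfaip8 were not. A site was found for 14 of 27 members, or 51.9%, against 9.55% of the 27025 genes in the table and 12.4% of the 9988 of them that passed the filter. At least 2 separate sites were found for 3 members, Nfkb2, Tnfaip3 and Nfkbid, or 11.1%, against 0.599% of all genes in the table. The list holds genes that were known as NF-κB targets, so this share is no independent evidence, and a match is not a site of binding. The 6 windows below are those with the most sites and then the most reads, 5′ to 3′ on the gene's strand, with the sites in capitals.
Tnfaip3 (chr10:19015361-19015660, minus strand): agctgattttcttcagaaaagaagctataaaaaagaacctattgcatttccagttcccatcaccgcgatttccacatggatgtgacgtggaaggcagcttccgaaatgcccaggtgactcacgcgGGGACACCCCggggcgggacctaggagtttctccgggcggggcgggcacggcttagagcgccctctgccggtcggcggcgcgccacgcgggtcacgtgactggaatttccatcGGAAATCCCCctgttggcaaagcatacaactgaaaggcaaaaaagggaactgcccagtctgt
Nfkb2 (chr19:46304487-46304786, plus strand): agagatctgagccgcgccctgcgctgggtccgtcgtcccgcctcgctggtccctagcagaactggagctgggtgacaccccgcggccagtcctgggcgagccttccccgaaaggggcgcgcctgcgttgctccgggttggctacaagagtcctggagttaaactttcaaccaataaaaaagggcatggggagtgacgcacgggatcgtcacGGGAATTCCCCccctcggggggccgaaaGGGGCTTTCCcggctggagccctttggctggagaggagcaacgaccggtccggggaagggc
Nfkbid (chr7:30422156-30422455, plus strand): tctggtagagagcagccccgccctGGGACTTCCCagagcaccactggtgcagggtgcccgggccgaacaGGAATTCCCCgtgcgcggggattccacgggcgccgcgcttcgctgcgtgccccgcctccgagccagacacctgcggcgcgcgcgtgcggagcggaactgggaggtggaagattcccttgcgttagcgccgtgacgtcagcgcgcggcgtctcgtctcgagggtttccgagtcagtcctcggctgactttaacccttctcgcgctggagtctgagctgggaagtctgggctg
Nfkbia (chr12:55492598-55492897, minus strand): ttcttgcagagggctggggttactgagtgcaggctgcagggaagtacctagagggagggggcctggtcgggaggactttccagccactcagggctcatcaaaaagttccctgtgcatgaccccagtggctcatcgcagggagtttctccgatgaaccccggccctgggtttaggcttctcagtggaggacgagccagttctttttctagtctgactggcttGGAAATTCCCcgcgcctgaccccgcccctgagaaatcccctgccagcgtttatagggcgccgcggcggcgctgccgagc
Tnfaip2 (chr12:111442411-111442710, plus strand): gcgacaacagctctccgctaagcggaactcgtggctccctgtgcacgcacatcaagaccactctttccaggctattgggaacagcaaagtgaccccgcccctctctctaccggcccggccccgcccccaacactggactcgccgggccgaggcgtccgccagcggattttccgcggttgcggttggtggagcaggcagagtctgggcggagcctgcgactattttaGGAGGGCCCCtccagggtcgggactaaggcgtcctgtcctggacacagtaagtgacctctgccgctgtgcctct
Bcl3 (chr7:19822706-19823005, minus strand): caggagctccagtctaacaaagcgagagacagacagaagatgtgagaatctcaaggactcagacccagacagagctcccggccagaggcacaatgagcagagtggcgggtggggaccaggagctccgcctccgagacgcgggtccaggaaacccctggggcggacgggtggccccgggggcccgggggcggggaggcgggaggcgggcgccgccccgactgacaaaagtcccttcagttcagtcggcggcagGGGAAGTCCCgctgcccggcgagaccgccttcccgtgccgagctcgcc

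Windows with a like site went with unlike ratios. Nfkb2 holds an 11-base run of overlapping matches, GGGAATTCCCC, and a second site, GGGGCTTTCC, and was 3.05-fold lower in KO. Tnip1 holds the 12-base palindrome GGGGAATTCCCC and was 2.82-fold lower. Nfkbia holds GGAAATTCCC, Bcl3 GGGAAGTCCC and Tnfaip3 both GGGACACCCC and GGAAATCCCC, and these 3 genes had ratios of 1.0, 1.05 and 0.911. Traf1 and Tnip2, at least 2-fold lower, had no match in their windows.

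Members with a site had a median log2 ratio of -0.24 (14 genes) and those without one of -0.27 (13 genes). At least 2-fold lower were 14.3% and 15.4% of them, 2 genes each. Among the genes that passed the filter, the median was -0.13 for the 1234 with a site and -0.06 for the 8754 without, and 13.7% and 11.1% were at least 2-fold lower. After the GC correction those medians were -0.03 and 0.00, and those of the members were -0.08 with a site and -0.20 without. Among these 27, lower genes and level genes were thus found both with and without the consensus. Relb and Cd40, also at least 2-fold lower, were not in the promoter table.

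Other genes of the pathway came from lists written with earlier results of these data known. Beside their counts stands the share of all genes compared that were below an equal level, 54.5%. Of 18 receptor and adaptor genes, 13 were below an equal level and 1 was at least 2-fold lower, the LPS coreceptor Cd14, with 6597 reads in WT and 2568 in KO and a log2 ratio of -1.03. This is 5.56% of the list against the background of 11.8%, and Cd14 was at -0.77 after the GC correction, where no gene of the list was at 2-fold. The adaptor Traf2 was next at -0.92, and Irak4 and Il1rap were highest, both at 0.21. Of 17 measured genes of the ubiquitin machinery, 11 were above an equal level, and the median was 0.16. Within it Rnf31, the catalytic subunit of the linear ubiquitin ligase that feeds the IκB kinase complex, had 1201 and 319 reads, a ratio of 0.335 (interval 0.295 to 0.379), and stayed at -1.32 after the GC correction. Its partner Rbck1 was at -0.99, or -0.30 after the correction. Btrc, the receptor for phosphorylated IκB in its ubiquitin ligase, was highest at 0.85, followed by Tab3 at 0.56.

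Nuclear cofactors had 8 of 12 members below an equal level, where 54.5% of all genes compared were. None was at 2-fold, against backgrounds of 11.8% lower and 3.28% higher. They ran from Macrod1 at -0.77 and Pdlim2 at -0.72 to Cops5 at 0.55 and Ppp6c at 0.78. Among 21 measured NF-κB target genes, 18 were below an equal level and 3 at least 2-fold lower, or 14.3% against the background of 11.8%, with a median of -0.57. After the GC correction 1 was at least 2-fold lower, where 6.37% of all genes were, and the median was -0.43. Lowest were the prostaglandin synthase gene Ptges at -1.41 and the RNase gene Zc3h12a at -1.11, or -1.17 and -0.57 after the GC correction. The iron-siderophore binder Lcn2 and the transcription factor Irf1 were highest, at 0.28 and 0.29, or 0.51 and 0.54 after the GC correction. The list thus had members on both sides, as the 34 genes did.

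Markers of several cell types moved with these results. All 13 Kupffer cell and macrophage markers were below an equal level, from Marco at -1.77 to Vsig4 and Timd4 at -0.33, and none was at 0 reads. At least 2-fold lower were 7 of them, or 53.8% against the background of 11.8%. After the GC correction 3 of the 13 were, against a background of 6.37%. Together the 13 markers held 1570 CPM in WT and 653 CPM in KO, a 2.40-fold difference. Their median was -1.15, or -0.72 after the GC correction. All 10 measured T and NK cell markers were lower, with 79.2 and 36.8 CPM summed over the 12 listed. For B cells, 6 of 7 markers were lower, with 31.4 and 19.4 CPM in sum, and 3 intervals spanned an equal level. Cd40, Traf1, Relb and Nfkb2, all at least 2-fold lower in KO, are genes that macrophages and lymphocytes are known to express. Rel is another such gene, and its ratio of 1.10 had an interval from 0.971 to 1.24. Tnip1 and Tnip2 were at least 2-fold lower as well. After the GC correction only Cd40 and Traf1 were, of all members. The part of these cells in the result was not tested.

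Neutrophil markers held 411 CPM in WT and 326 CPM in KO in sum, with 5 of 8 measured markers lower. Of all genes compared, 54.5% were lower. Endothelial markers held 693 and 586 CPM, with 6 of 9 lower. Their median log2 ratio was -0.06, where that of all genes was -0.07. Of their intervals, 3 lay below an equal level and 3 above it. After the GC correction 4 of 9 were below 0, with a median of 0.02. Stellate cell and fibroblast markers held 1793 and 1547 CPM, with 7 of 9 lower. Hepatocyte markers were higher in 11 of 12 cases, with a median of 0.34. Of 7 measured cholangiocyte markers 6 were higher in KO, with 159 CPM in WT and 250 CPM in KO over the 8 listed. At least 2-fold higher were 3 of the 7, Muc1, Krt19 and Epcam, against a background of 3.28%. Muc1 had 124 reads in WT and 548 in KO, Krt19 228 and 767, and Epcam 138 and 237. After the GC correction 3 were at least 2-fold higher, against a background of 4.25%. Of 13 genes of exocrine pancreas and gut, 9 were at 0 reads in WT and 8 in KO. The 3 that passed the filter went both ways. Ctrb1 had 0 reads in WT and 297 in KO, and Tff2 had 4 and 62. Cela1 had 521 and 328 reads, a ratio of 0.794. The part of these cells too was not tested.

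**Figure D4:**
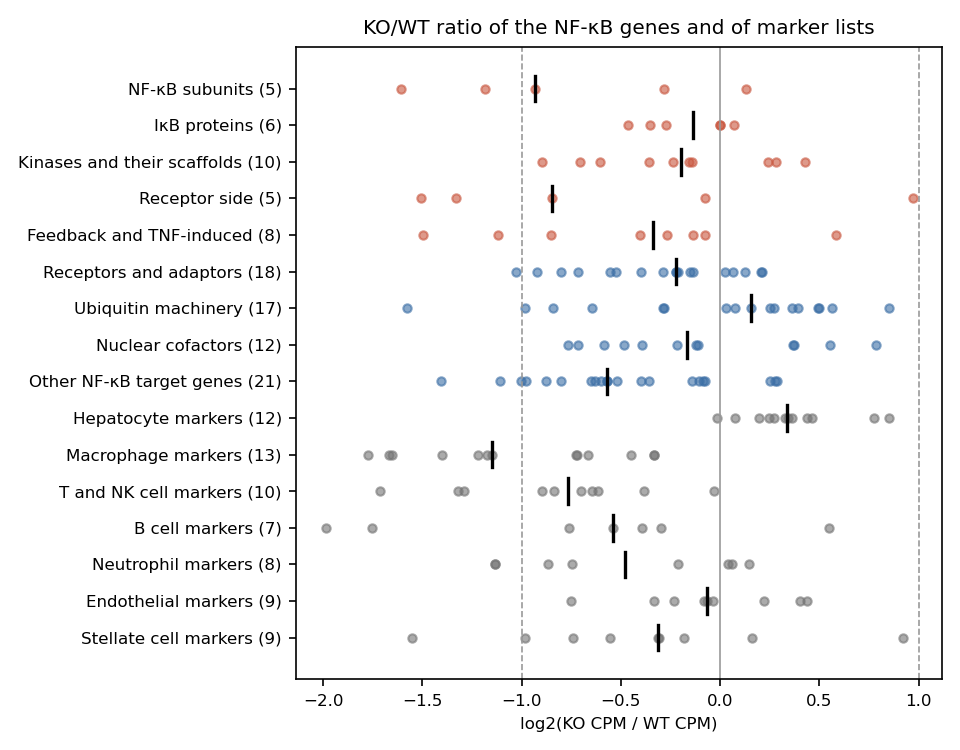
Log2 ratio of KO to WT CPM (x axis) of single genes (points) in the lists named on the y axis, with the number of genes that passed the filter. A black bar marks each list's median and dashed lines mark 2-fold. The cholangiocyte list and the exocrine pancreas and gut list are not drawn. The NF-κB genes are red, other pathway lists blue and cell type markers grey. IκB genes sit between -0.46 and 0.07, and macrophage markers all lie below 0.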

How the data were processed

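Liver RNA of 2 genotypes was measured in 2 libraries, 1 per group, each a pool of 4 livers per the labels. Reads were processed with HTSeq 0.6.1 and TopHat2 on GRCm38, per the submitters' processing notes; no source used here gives the annotation release, the filters or whether counting used strand. The files deposited by the authors are named for FPKM but hold whole-number read counts, with 2707 WT genes holding a single read, and were used as raw counts. Rows without an Ensembl ID (209, or 0.652% of reads in WT and 0.496% in KO) were left out.

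CPM used totals over Ensembl genes; 3 reads, the floor for a count of 0, were 0.151 CPM in WT and 0.190 in KO. FPKM, exon length and GC content came from the union of GENCODE M21 exons. Genes with a mean of 1 CPM or more were compared by the KO to WT ratio, with exact conditional intervals, and called at 2-fold by size. Reads are not independent molecules. The GC correction subtracted the median of 20 bins; an alternative used 10 GC by 4 length bins, with medians over genes of 100 reads or more. The 2-fold calls, the intervals and the 2 corrections were tested on simulated counts that held counting error only. The promoter search, the overlaps and the marker lists were not part of that test.

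The members, gene lists and the rule for named genes (all members, Gbp5, and the 2 highest and 2 lowest of each other pathway list) were chosen with earlier results of these data known. Beyond that rule, Ctrb1, Tff2, Cela1, Gzmb, Muc1, Krt19, Epcam and the overlapping genes were chosen after their values were seen. Protein sequences were not used here. Python 3.11.15, numpy 2.4.6, pandas 2.3.3, scipy 1.17.1, bedtools 2.31.1 and, for TMM factors alone, edgeR 4.0.16 in R 4.3.3 were used.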

Additional observations from a re-analysis of the deposited data

How the results depend on the processing

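The count of members at least 2-fold lower in KO was 6 with TMM, median ratio, mitochondria-free and protein-coding totals, with 0.5 CPM added, with no filter and with a filter at 5 CPM, and the same 6 genes were called in each. It was 4 on FPKM with 1 added, 2 after the GC correction, 3 after the correction for GC content and length (Cd40, Traf1 and Tnip2), and 2 with protein-coding genes and the GC correction, an alternative chosen after seeing the data. For the first of these, the added 1 shrinks differences of low genes; for the corrections, the cause was not tested. The count at least 2-fold higher was 0 in all but 1 alternative: totals without the 50 most abundant genes shift every log2 ratio by 0.10 and gave 1, Traf6 at 1.07. The median log2 ratio ranged from -0.28 to -0.16 over all alternatives. Gbp5 was at -1.54, and at -1.67 after the GC correction with all genes and with protein-coding genes alone. No called member changed direction. The promoter search gave 13 members with a site when only the 250 bases before the start were read. No paired analysis was possible because each group has 1 library. Depth limits genes such as Traf1, Tnip3 and Map3k14, which had 100 to 359 reads per library.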
